A study of Nicotiana benthamiana with 6 samples.

Results

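PR1 genes encode small secreted proteins with a CAP domain, the fold shared by cysteine-rich secretory proteins, antigen 5 and PR1. In tobacco they form an acidic group, PR-1a to PR-1c, which is the classical marker of salicylic acid (SA) signaling and systemic acquired resistance (SAR), and a basic group, which is known for its response to ethylene, jasmonate and wounding. Their products accumulate in the leaf apoplast after infection, and PR1 proteins are known to bind sterols.

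The PR1 genes described here are 6 of the 167935 unigenes of a de novo assembly from *Nicotiana benthamiana* leaves. The unigenes c134230_g1_i1 and c113036_g1_i1 were taken by their listed names, PR1b and PR1a. The other 4 were taken by annotation: a best match to a *Nicotiana* or *Solanum* protein, and a UniProt name of pathogenesis-related protein 1 or of a pathogenesis-related leaf protein. A single further unigene with such a UniProt name, a Golgi-associated protein, had a bacterial best match and was left out.

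The leaves of wild-type plants were infiltrated with *Agrobacterium tumefaciens* LBA4404. In the *MaWRKY45* overexpression group the bacteria carried pCAMBIA2200::*MaWRKY45*, with the coding sequence of a banana WRKY transcription factor behind the constitutive CaMV35S promoter. In the mock group they carried the empty pCAMBIA2200 vector. Leaves were taken after 3 days, and each group has 3 libraries, each from the pooled RNA of 3 plants. Expression of the transgene is transient, and the mock leaves carry the bacterium as well, so the levels in mock are those of agroinfiltrated leaves.

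Read pair counts amounted to between 12590186 and 13465854 in overexpression libraries and between 12031310 and 14285138 in mock libraries. The unigene best matched to a banana WRKY protein, c147189_g1_i1, held 3133, 4527 and 3615 counts in the overexpression libraries (replicates 1, 2 and 3) and 1617, 781 and 1455 counts in the mock libraries (log2 fold change 1.46, SE 0.29, edgeR's Benjamini-Hochberg (BH) adjusted p = 0.0181). Its UniProt match is a transactivator/viroplasmin protein, a protein of the virus family that gives the CaMV35S promoter, and which of its bases the mock reads cover was not tested. Unigenes matched to yeasts took 0.0029 to 0.0093% in overexpression libraries and 0.0672 to 0.1003% in mock libraries. Those matched to *Agrobacterium* or *Rhizobium* took 0.0028 to 0.0036% in overexpression libraries and 0.0016 to 0.0032% in mock libraries. The part of these shares in the results was not tested.

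The 6 unigenes are grouped here, by the names in the deposited annotation, into an acidic form (PR-1A), 3 basic forms and 2 leaf proteins. The annotation itself does not use the word acidic, and it does not say whether the leaf proteins are acidic or basic. The acidic form is c120693_g1_i1 (1129 bases), whose UniProt match is tobacco PR-1A and whose nucleotide match is the tobacco PR-1a gene. Of the 6 it is the only one with the GO terms response to salicylic acid and response to bacterium. It is also the only one with response to ethylene, to jasmonic acid, to wounding and to herbivore. These GO terms therefore do not separate the acidic from the basic forms by hormone. The basic forms are c134230_g1_i1 (1119 bases) and c123475_g1_i1 (414 bases), both with a UniProt match to the basic form of pathogenesis-related protein 1 from tobacco. The nucleotide match of c134230_g1_i1 is the tobacco prb-1b gene.

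The unigene listed as PR1a, c113036_g1_i1 (438 bases), had no protein match, no domain and no GO term. Its single match is a tobacco transcript named as the basic form, and the KEGG match of c123475_g1_i1 is the gene of that same transcript. The pair may therefore be pieces of 1 gene and cannot be counted as independent. The leaf proteins are c47749_g1_i1 (440 bases), matched to tomato leaf protein 6, and c102537_g1_i1 (932 bases), matched to tomato leaf protein 4. In tomato, leaf protein 6 is a PR1 protein that accumulates after infection. All but c113036_g1_i1 carried the CAP domain in the Pfam column. *N. benthamiana* is an allotetraploid, so near-identical copies from both parental genomes can share reads or be merged in 1 unigene, and every value below is of a unigene in that sense.

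To ask whether *MaWRKY45* overexpression changed these genes, the counts of all unigenes that passed edgeR's expression filter were compared between the groups, and a unigene was called when it changed at least 2-fold with a BH-adjusted p below 0.05. Levels are given as TMM CPM, the usual library-size-scaled counts (CPM) with edgeR's normalization between libraries by the trimmed mean of M-values. All 6 PR1 genes passed the filter. PR1b (c134230_g1_i1) and PR1a (c113036_g1_i1) were up-regulated, leaf protein 4 (c102537_g1_i1) was down-regulated, and the acidic PR-1A unigene, the most abundant of the 6, was not called. Among all 37201 tested unigenes, 1.92% were called higher and 2.67% called lower. The groups did not overlap in these 3 called PR1 genes, nor in 22.9% of all tested unigenes. The median log2 fold change of the 6 was 1.36, against -0.01 over all tested unigenes. PR1a and PR1b were listed by name with earlier results of these data known, and PR1a has no protein match. PR1a and c123475_g1_i1 may also be pieces of 1 gene, so this median describes the chosen unigenes and tests nothing. Chlorophyll a-b binding proteins and Rubisco small chains, markers of green leaf tissue, tended to be lower in overexpression leaves beside these changes. In ranges that overlapped, they took 0.62 to 1.03% of the counts in overexpression libraries and 0.84 to 2.72% in mock libraries, the most in mock replicate 2. Of their 23 tested unigenes 1 was called higher, 5 were called lower and 19 had a log2 fold change below 0, with a median of -1.43, and 13 of them had groups without overlap. The call with the lowest adjusted p among them was chlorophyll a-b binding protein P4 (c99311_g4_i1, log2 fold change -2.09, SE 0.39, edgeR's BH-adjusted p = 0.0146). Unigenes of chlorophyll a-b binding proteins 4 (c68132_g1_i1, -2.22, SE 0.47) and 8 (c97582_g5_i3, -1.55, SE 0.34) were called lower as well, and another of protein 4 (c94726_g9_i1, 2.07, SE 0.48) was the one called higher. The part of the leaf marker shift in the PR1 changes was not tested. As these are bulk leaf samples, more cells expressing a gene and more transcript per cell cannot be told apart.

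**Figure D1:**
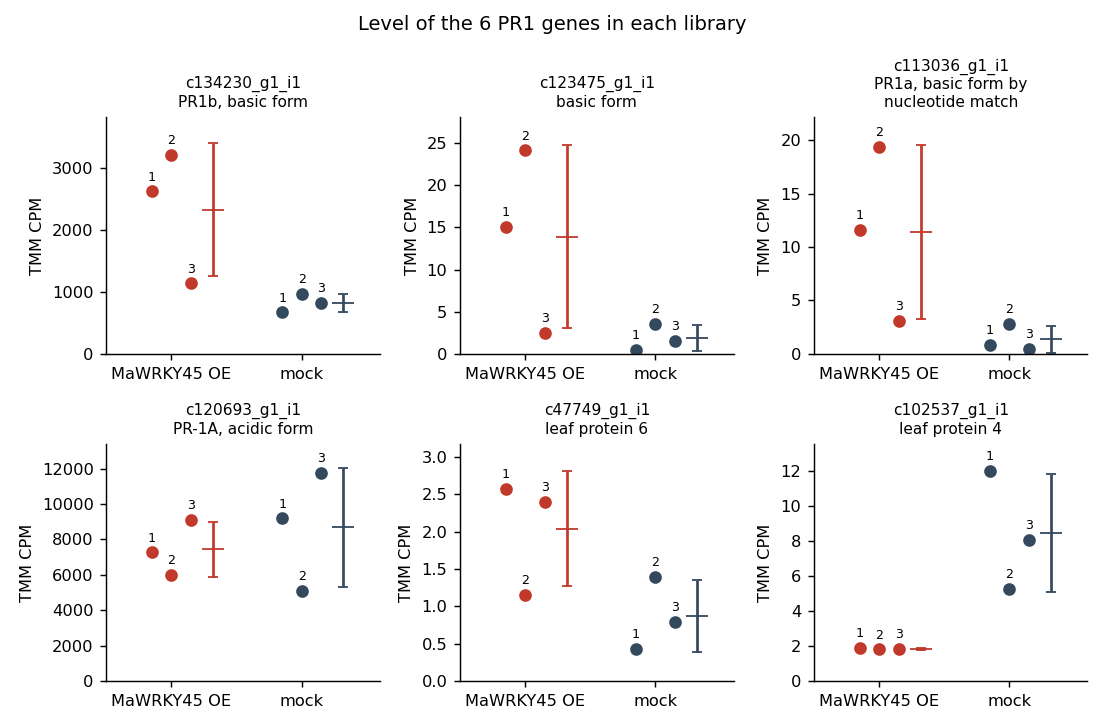
TMM-normalized CPM (vertical axis from 0) of the 6 PR1 genes in the 3 *MaWRKY45* overexpression (OE, red) and 3 mock (dark) libraries. Points are libraries with their replicate number, and the bar beside them is the mean with the SD. Overexpression replicate 3 was the lowest of its group for all 3 basic forms, and mock replicate 2 the highest of its group.

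PR1b (c134230_g1_i1), a basic form, had 2626, 3221 and 1139 TMM CPM in overexpression replicates 1, 2 and 3, against 670.3, 969.9 and 825 TMM CPM in mock replicates 1, 2 and 3. All overexpression libraries were above all mock libraries, but replicate 3 lay close to the highest mock library while replicates 1 and 2 lay far above it. The mean was 2329 ± 1072 TMM CPM in overexpression leaves and 822 ± 149.9 TMM CPM in mock leaves (SD, n = 3 each). The log2 fold change was 1.50 (SE 0.36, 95% interval 0.69 to 2.31), a 2.83-fold higher level (edgeR's BH-adjusted p = 0.0431).

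PR1a (c113036_g1_i1), the short unigene with only a nucleotide match, was counted 149, 269 and 43 times in overexpression replicates 1, 2 and 3, and 12, 38 and 5 times in the mock replicates. These were 11.6, 19.4 and 3.12 TMM CPM in overexpression leaves and 0.862, 2.78 and 0.442 TMM CPM in mock leaves. The groups did not overlap, by a narrow margin between overexpression replicate 3 and mock replicate 2. This gave a log2 fold change of 3.03 (SE 0.71, 95% interval 1.46 to 4.60), an 8.16-fold higher level (edgeR's BH-adjusted p = 0.0373).

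The third basic form, c123475_g1_i1, was counted 193, 335 and 35 times in overexpression replicates 1, 2 and 3, and 7, 48 and 18 times in the mock replicates. In TMM CPM these were 15.0, 24.1 and 2.54 against 0.503, 3.52 and 1.59. Overexpression replicate 3 lay below mock replicate 2, so the groups overlapped. Its log2 fold change of 2.89 (SE 0.77, 95% interval 1.17 to 4.60) did not pass the threshold (edgeR's BH-adjusted p = 0.0616). The size was close to that of PR1a, and the order of the 3 overexpression libraries was the same in all 3 basic forms, with replicate 2 the highest and replicate 3 the lowest.

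The calls of the basic forms depended on single libraries. With both PR1a and PR1b, the call was lost without overexpression replicate 1, overexpression replicate 2, mock replicate 1 or mock replicate 3, with edgeR's BH-adjusted p between 0.0909 and 0.165. In those 4 fits none of the PR1 genes was called higher by edgeR, while 3, 4, 3 and 3 of them, in the order given, were at least 2-fold higher with an unadjusted p below 0.05. Of all unigenes tested in these fits, 4.73, 4.14, 5.20 and 4.99% met that same unadjusted rule. Calls fell for all unigenes too: 331 of 40666, 294 of 38733, 230 of 38966 and 396 of 40784 tested unigenes were called higher. The reported fit called 714 of 37201 higher. On all 6 libraries DESeq2 called PR1a and PR1b higher, and limma-voom called neither (BH-adjusted p of 0.0953 for PR1a and 0.0501 for PR1b). Without overexpression replicate 3 or without mock replicate 2, all 3 basic forms were called higher, and for c123475_g1_i1 edgeR gave BH-adjusted p-values of 0.0048 and 0.0243. Calls rose for all unigenes in these 2 fits, with 1206 of 40189 and 1176 of 39213 tested unigenes called higher. The direction of the 3 basic forms did not change in any fit named in this paragraph. The log2 fold change of PR1b stayed between 1.21 and 1.84. That of PR1a was 2.43 without overexpression replicate 2 and 4.07 without mock replicate 2. That of c123475_g1_i1 was 2.25 and 3.76 in the same fits.

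The acidic form, PR-1A (c120693_g1_i1), had 7264, 5971 and 9085 TMM CPM in overexpression replicates 1, 2 and 3, against 9191, 5109 and 11753 TMM CPM in mock replicates 1, 2 and 3. The ranges overlapped, with all 3 overexpression libraries inside the range of the mock libraries. The mean was 7440 ± 1565 TMM CPM in overexpression leaves and 8684 ± 3351 TMM CPM in mock leaves (SD, n = 3 each). The log2 fold change was -0.22 (SE 0.37, edgeR's BH-adjusted p = 0.814), and its 95% interval of -1.04 to 0.60 does not reach a 2-fold rise but does reach a 2-fold fall. The estimate was 0.05 without mock replicate 3. Mock replicate 2, the lowest library for PR-1A, was the one with the largest share of leaf marker counts (2.72%) and the highest of the mock group for the basic forms. The part of this in the result was not tested. Without mock replicate 2 the log2 fold change of PR-1A was -0.50 (edgeR's BH-adjusted p = 0.369).

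Leaf protein 4 (c102537_g1_i1) was the PR1 gene with the clearest change, and it fell. Its counts were 24, 25 and 25 in overexpression replicates 1, 2 and 3, while the mock replicates held 167, 72 and 91. These were 1.87, 1.80 and 1.81 TMM CPM in overexpression leaves and 12.0, 5.27 and 8.04 TMM CPM in mock leaves. The overexpression libraries were nearly equal and all lay below the lowest mock library. Its log2 fold change was -2.20 (SE 0.34, 95% interval -2.96 to -1.44), a 4.60-fold lower level (edgeR's BH-adjusted p = 0.00677). The call held in all 6 fits that leave out a library, with edgeR's BH-adjusted p between 0.00109 and 0.0359.

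Leaf protein 6 (c47749_g1_i1) was measured at few counts, namely 33, 16 and 33 in the overexpression libraries and 6, 19 and 9 in the mock libraries. In TMM CPM these were 2.57, 1.15 and 2.39 against 0.431, 1.39 and 0.795. Overexpression replicate 2 lay below mock replicate 2, and the groups overlapped. Its log2 fold change of 1.21 (SE 0.50, 95% interval 0.09 to 2.33) was not called (edgeR's BH-adjusted p = 0.224).

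**Figure D2:**
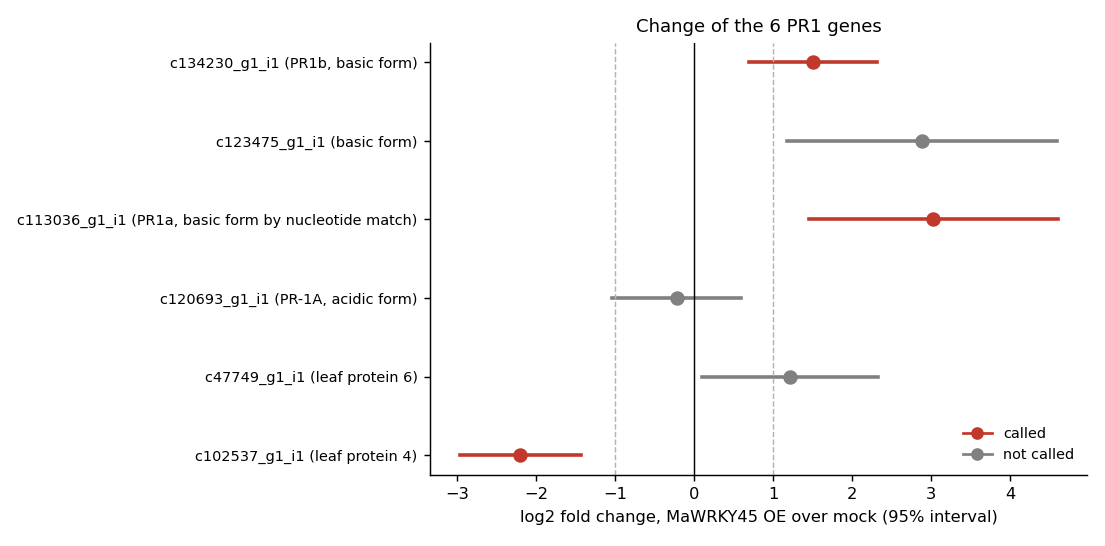
Log2 fold change of each PR1 gene, *MaWRKY45* overexpression over mock (horizontal axis), with its 95% interval from edgeR's fit. Red marks called genes and gray the others, and dashed lines mark a fold change of 2. The called basic forms lie at 1.50 and 3.03, leaf protein 4 at -2.20, and the interval of PR-1A spans 0.

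The levels of the PR1 genes were compared with each other per length, with the deposited FPKM (fragment counts scaled by unigene length and by library depth). PR-1A (c120693_g1_i1) had 7870, 6595 and 10449 FPKM in overexpression replicates 1, 2 and 3, against 9546, 5239 and 11917 FPKM in the mock replicates. By this measure it was rank 1 of all 167935 unigenes in each overexpression library and rank 3, 4 and 2 in mock replicates 1, 2 and 3. It alone took 0.615 to 0.983% of all counts in overexpression libraries and 0.488 to 1.11% in mock libraries.

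PR1b (c134230_g1_i1) came second among the PR1 genes in every library. It had 2876, 3597 and 1324 FPKM in overexpression leaves, which is rank 10, 6 and 23 of all unigenes, against 704, 1005 and 846 FPKM in mock leaves, rank 75, 46 and 50. The gap to PR-1A was larger than the spread over libraries, since the highest PR1b library (3597 FPKM) was below the lowest PR-1A library (5239 FPKM).

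The other 4 PR1 genes lay far lower. In overexpression leaves c123475_g1_i1 ranged from 12.1 to 113.5 FPKM, c113036_g1_i1 from 13.5 to 82.3 FPKM, c47749_g1_i1 from 4.85 to 10.4 FPKM and c102537_g1_i1 from 2.52 to 2.64 FPKM. In mock leaves the same unigenes ranged from 2.16 to 15.4 FPKM, 1.75 to 11.0 FPKM, 1.66 to 5.47 FPKM and 6.86 to 15.8 FPKM. The ranges of c123475_g1_i1 and c113036_g1_i1 overlapped in both groups, and in mock leaves those of c102537_g1_i1 and c123475_g1_i1 did as well. In overexpression leaves c102537_g1_i1 was the lowest of the 6 in each library, while in mock replicates 1 and 3 it was the third highest.

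**Figure D3:**
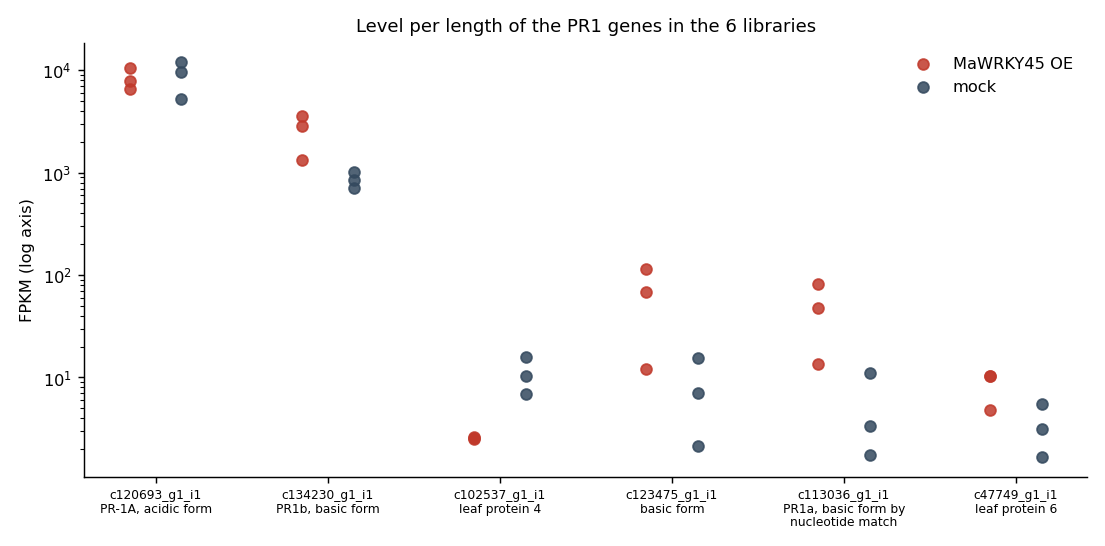
FPKM of the PR1 genes on a log axis, ordered by their mean in mock leaves, with 1 point for each *MaWRKY45* overexpression (red) and mock (dark) library. PR-1A lies at 5239 FPKM or higher in every library, PR1b between 704 and 3597, and the other 4 genes below 114.

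The proportion of basic to acidic PR1 can be read within each library, where no scaling between libraries enters. The FPKM of PR1b was 36.5, 54.5 and 12.7% of that of PR-1A in overexpression replicates 1, 2 and 3, against 7.37, 19.2 and 7.10% in mock replicates 1, 2 and 3. Overexpression replicates 1 and 2 stood above all mock libraries and replicate 3 lay below mock replicate 2. The mean log2 ratio was higher by 1.55 in overexpression leaves (two-sided exact permutation test, p = 0.2, where 3 libraries against 3 cannot give less than 0.1). A different response of the basic and the acidic form was therefore not shown by this test. For leaf protein 4 against PR-1A the percentages were 0.0325, 0.0382 and 0.0253 in overexpression leaves and 0.165, 0.131 and 0.0869 in mock leaves, without overlap. That difference in mean log2 ratio was -1.97 (two-sided exact permutation test, p = 0.1, the smallest p this design allows). These were 2 of 4 such ratios computed, and over the 4 the BH-adjusted p was 0.267 for both.

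**Figure D4:**
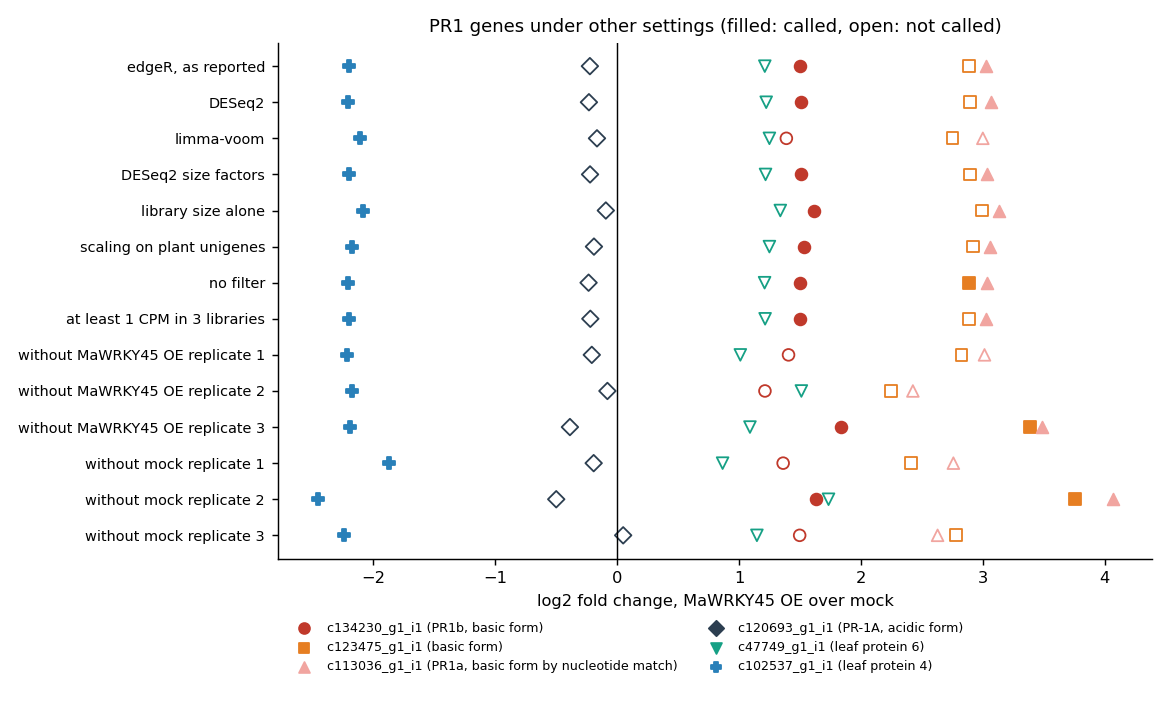
Log2 fold change, *MaWRKY45* overexpression over mock (horizontal axis), of the 6 PR1 genes in the reported fit and with other tools, scalings, filters or a library left out (rows). Filled symbols are called and open symbols are not. Leaf protein 4 is filled in every row, while PR1a and PR1b turn open under limma-voom and without 4 of the 6 libraries.

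The profiles of other unigenes were set beside those of PR1b and PR1a by the root mean square difference of their log2 TMM CPM, centred on each unigene's mean over the 6 libraries. This is a description over 6 libraries, without a test, among 17374 tested unigenes with a UniProt match and a mean of at least 1 TMM CPM. Nearest to PR1b were unigenes named MOB kinase activator-like 1A (c88081_g1_i2, difference 0.103), suberization-associated anionic peroxidase (c96980_g1_i3, 0.121) and cysteine-rich receptor-like protein kinase 42 (c84027_g1_i1, 0.165). The first and the third held only 13 to 60 and 10 to 55 counts per library and were not called, while the peroxidase was called higher. The peroxidase had 1648, 2160.5 and 933 TMM CPM in overexpression replicates 1, 2 and 3 against 484, 660.1 and 549.6 TMM CPM in the mock replicates, so that it shared the low replicate 3 of PR1b.

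Nearest to PR1a were probable inactive purple acid phosphatase 27 (c77272_g1_i3, 0.327), inositol oxygenase 2 (c95103_g2_i2, 0.384) and probable WRKY transcription factor 9 (c86488_g1_i2, 0.435). The phosphatase (175 to 3723 counts per library) and the WRKY factor (1 to 50) were called higher, and the oxygenase (2 to 153) was not called. The basic form c123475_g1_i1 was at 0.681 from PR1a, with 30 unigenes nearer. PR1b was at 1.02 from PR1a, with 254 nearer to PR1a. Seen from PR1b, however, the nearest other PR1 gene was leaf protein 6 (0.767), which has few counts, with 3868 unigenes nearer. To PR1b, 12270 unigenes were nearer than PR1a and 11392 nearer than c123475_g1_i1 (0.981). For PR-1A (1.10) and leaf protein 4 (1.84) these were 13799 and 17024. Leaf protein 6 was at 1.45 from PR1a, with 1318 unigenes nearer. PR-1A (2.08) and leaf protein 4 (2.76) were much farther from PR1a, with 14801 and 17068 unigenes nearer.

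Of 4 other *Nicotiana*-matched unigenes with a CAP domain, 2 passed the filter and both were called, in opposite directions. An STS14 protein unigene (c86737_g1_i1), named after a pistil protein of potato, was counted 145, 89 and 118 times in overexpression replicates 1, 2 and 3, and 39, 42 and 41 times in the mock replicates. It was up-regulated by 1.47 on the log2 scale (SE 0.29, edgeR's BH-adjusted p = 0.0177). A PR-1-like unigene (c8967_g1_i1), whose UniProt name lies outside the choice of members, had 9, 0 and 2 counts against 29, 36 and 27. Its log2 fold change was -3.06 (SE 0.72, edgeR's BH-adjusted p = 0.0383). Both had groups that did not overlap.

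The other PR families, which share the name and the secretion into the apoplast or vacuole but not the fold, are set beside the 1.92% called higher and 2.67% called lower among all tested unigenes. These lists were taken by protein name, so they can hold unigenes that are not pathogenesis-related. Of 35 tested unigenes named glucan endo-1,3-beta-glucosidase (glucanases, the enzyme class of PR2), 2 were called higher and 1 lower. Of 14 tested chitinase unigenes (PR3 and PR8), 1 was called higher, an acidic endochitinase (c77563_g3_i2, log2 fold change 2.45, SE 0.57, edgeR's BH-adjusted p = 0.0367). None of 2 PR4 and 14 PR5 thaumatin-like unigenes was called by edgeR or limma-voom. DESeq2 called 2 PR5 and 0 PR4 unigenes in either direction, where it called 2641 of 160339 unigenes. Those 160339 also hold unigenes under edgeR's filter, which these PR4 and PR5 unigenes all passed. The 2 shares are therefore of unlike sets and are not compared. At an unadjusted p below 0.05 edgeR had 5 PR5 unigenes and 1 PR4 unigene, again in either direction. The share of all tested unigenes at that unadjusted p was not computed, so nothing is drawn from these counts. The medians of the log2 fold change were -0.29, 0.32, 0.33 and 0.16 in the order of these families. The called glucanases were a basic vacuolar isoform (c95792_g1_i1, 2.29, SE 0.56, edgeR's BH-adjusted p = 0.0444), glucosidase 12 (c74505_g1_i1, 2.03, SE 0.42, edgeR's BH-adjusted p = 0.0213) and, called lower, glucosidase 1 (c94971_g2_i3, -2.15, SE 0.50, edgeR's BH-adjusted p = 0.0364).

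Upstream of acidic PR1 genes, SA is perceived by NPR proteins, which act with TGA transcription factors at the PR1 promoter, and SAR is amplified by pipecolate synthesis. The list of SA and SAR genes set beside the PR1 genes is wider than these steps and also takes in DMR6-type enzymes, SAG101 and WRKY factors. Of its 58 tested unigenes, 7 were called higher, 3 lower and 48 neither, with a median log2 fold change of -0.01. Of all tested unigenes 1.92% were called higher and 2.67% lower. Among the 7 was ALD1 (c74701_g1_i1), the aminotransferase of pipecolate synthesis. It had 185, 369.9 and 219.7 TMM CPM in overexpression replicates 1, 2 and 3, against 102, 77.4 and 107 TMM CPM in the mock replicates (log2 fold change 1.44, SE 0.27, edgeR's BH-adjusted p = 0.015).

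DMR6 (c91811_g3_i2), an enzyme that hydroxylates SA in *Arabidopsis*, and a DMR6-like oxygenase 2 (c148354_g1_i1) were called higher. Their log2 fold changes were 1.07 (SE 0.22) and 2.62 (SE 0.38), and edgeR gave BH-adjusted p-values of 0.0216 and 0.00495. Called lower were SAG101 (c97161_g3_i6, a partner of EDS1 in immune signaling), with a log2 fold change of -1.25 (SE 0.26), and another DMR6-like oxygenase 2 (c82605_g1_i5), with -1.30 (SE 0.28). Their edgeR BH-adjusted p-values were 0.0219 and 0.025. The third was a WRKY51 unigene (c89599_g3_i1, -2.13, SE 0.52, edgeR's BH-adjusted p = 0.0435), whose groups overlapped.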

How the data were processed

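Total RNA of 6 leaf samples was sequenced as paired-end poly(A) libraries. Trimmomatic (trimming), Trinity (assembly), CD-HIT-EST (redundancy), Bowtie2 (alignment) and RSEM (abundance) were the tools of the authors. The deposited counts are whole read pairs per unigene, not normalized, and match the deposited per-library expected counts exactly for all 167935 unigenes. The deposited FPKM and TPM are RSEM estimates by the authors. FPKM was used for levels between genes, and TPM was not used. The library kit keeps strand, and whether counting used it is not given in the sources used here. Unigene lengths and annotation were taken as deposited.

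The members and lists were chosen with earlier results of these data known. Counts were tested with edgeR 4.0.16 in R 4.3.3 (filterByExpr, TMM, glmQLFit, glmQLFTest) over 37201 unigenes, with Benjamini-Hochberg (BH) adjustment. SE is the log2 fold change divided by the root of F. The sources call the replicates biological, each from 3 pooled plants. Alternatives used DESeq2 1.42.0, limma-voom (limma 3.58.1), other scalings and filters, a replicate block, and each library left out; the fits were tested on simulated counts. Named beside the members are the 3 called unigenes with the lowest adjusted p per direction of each list, and the 3 nearest profiles (prior count 2). The word NDR1 also matched NDR1/HIN1-like proteins, which were left out of the SA list after the data were seen; with them 73 unigenes were tested, 7 called higher and 4 lower. Unigene sequences were not used here.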

Additional observations from a re-analysis of the deposited data

How the results depend on the processing

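The call of leaf protein 4 (c102537_g1_i1) held under all alternatives run: DESeq2, limma-voom, 3 other scalings, 2 other filters, the replicate block and each library left out. The 2 PR1 genes called higher became 0 under limma-voom, where 4 were at least 2-fold higher with an unadjusted p below 0.05, a rule that 1861 of all 37201 tested unigenes met (5%). With limma-voom the BH-adjusted p was 0.0953 for PR1a and 0.0501 for PR1b, against a range over all alternatives of 4.65e-16 to 0.154 and 1.14e-09 to 0.165, in which the lowest values come from the fit with no filter. The number of PR1 genes called higher ran from 0 to 3 with a library left out, and that of all unigenes called higher from 230 to 1206. With no filter, which tested 160339 unigenes and called 1615 higher, c123475_g1_i1 was called as well. The log2 fold change of PR-1A, not called in any fit, ran from -0.50 to 0.05 with a library left out, and its sign turned without mock replicate 3 (0.050). There edgeR gave a BH-adjusted p of 0.969, within 0.369 to 0.97 over all alternatives.

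The number of unigenes called was 1706, and it was 2641 with DESeq2, 4201 with no filter and between 674 and 2756 with a library left out. Of the 1706, 714 were called higher and 992 lower; with library size alone these were 930 and 750, with a median log2 fold change of 0.11 over all tested unigenes. The PR1 calls held under that scaling and under scaling on unigenes matched to *Nicotiana*, *Solanum* or *Capsicum*, which leaves out those matched to yeast. Levels from FPKM gave the same direction for all 6 PR1 genes.

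Samples share only a replicate number: deviations from the group means correlated at -0.09, -0.10 and -0.08 between same-numbered samples (replicates 1, 2 and 3), across genes. They correlated at 0.15, 0.20 and 0.14 between overexpression replicates 1, 2 and 3 and mock replicates 2, 3 and 1. The remaining pairs were below 0. Whether samples of different numbers share a batch was not tested. With a replicate block, 583 unigenes were called higher and 847 lower, and 2 PR1 genes were called higher, PR1a (edgeR's BH-adjusted p = 0.00254) and c123475_g1_i1 (0.0398), while PR1b was not (0.0847). Leaf protein 6 rests on 16 to 33 counts in overexpression libraries and 6 to 19 in mock libraries, and the 95% interval of its log2 fold change runs from 0.09 to 2.33.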

Other observations

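A further 3 unigenes, without a protein match, had a PR1 transcript or gene of *Nicotiana* as their nucleotide match and were outside the choice of members; they were looked up after the data were seen. The unigene c122153_g1_i1 (820 bases), matched to the tobacco PR-1a gene, had 19.3, 12.4 and 12.2 TMM CPM in overexpression replicates 1, 2 and 3, against 7.26, 9.45 and 6.54 TMM CPM in the mock replicates (log2 fold change 0.91, SE 0.26, edgeR's BH-adjusted p = 0.073). The groups did not overlap, while those of c120693_g1_i1, matched to the same tobacco gene and far more abundant, did. The unigenes c102306_g1_i1, matched to a basic form, and c47749_g2_i1, matched to leaf protein 6 and of the same assembly cluster as c47749_g1_i1, were higher by 1.33 (SE 0.44) and 1.39 (SE 0.45) on the log2 scale in overexpression leaves. Their edgeR BH-adjusted p-values were 0.122 and 0.111, and their groups did not overlap. None of the 3 was called by edgeR, DESeq2 or limma-voom, and all 3 had an unadjusted p below 0.05 in edgeR's test. The share of all tested unigenes at that unadjusted p was not computed, and 22.9% of them had groups without overlap.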
